A study of Mus musculus with 8 samples.

Results

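Amino acid and monocarboxylate transporters of the solute carrier families Slc1a, Slc3a, Slc6a, Slc7a, Slc16a, Slc36a, Slc38a and Slc43a were followed across 8 mouse microarrays. Members were taken by gene symbol from the probesets with exactly 1 gene, by a rule that holds no measured value, though the families were picked with earlier results of these data known. This gave 80 probesets of 77 genes, out of 21789 single-gene probesets of 19938 genes. Of the 77 genes, 75 encode family members, and the other 2, Slc6a19os and Slc7a6os, carry a family name only because they lie opposite a carrier gene. The Slc6a and Slc16a families also hold carriers of neurotransmitters, taurine, creatine and thyroid hormone, so the family label is wider than amino acids and monocarboxylates.

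The arrays came from 3 groups. Lymphoid primed multipotent progenitors of Tcf7-/- mice (called Tcf1-deficient) or Tcf7+/+ mice (wildtype) were cultured for 4 days on OP9-DL4, a bone marrow stromal line that presents the Notch ligand DL4. Both genotypes came from a line that was backcrossed for approximately 6 generations and kept on a mixed background, and the age of the mice was not given in the sources used here. Every culture received IL1 at 1 ng/ml and Flt3L at 5 ng/ml, in medium that the labels list with 20% FCS and with L-glutamate at 10%. CD45.2-positive lineage-negative cells (Mac1-Gr1-Thy1-CD25-) were sorted from 3 deficient and 3 wildtype mice. T lineage cells (Thy1+CD25+) were sorted as 2 wildtype replicates, which are not said to come from separate mice, and per the labels none arose from deficient progenitors. The comparisons ask how these transporters stand in lineage-negative cells grown from progenitors without Tcf1 (the transcription factor encoded by Tcf7). They also cover the T lineage cells that wildtype progenitors form under Notch stimulation. RNA came from sorted populations in bulk, in which fewer cells of a type and less RNA per cell cannot be told apart.

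Amino acid transporters set the supply of leucine, glutamine, arginine and cystine for protein synthesis, for mTORC1 signalling at the lysosome and for glutathione. Slc3a2 (CD98 heavy chain) carries several Slc7a light chains to the cell surface, among them Slc7a5, which imports leucine in exchange for glutamine. Some Slc16a carriers, Slc16a1 among them, move lactate and pyruvate with a proton and reach the membrane with the chaperones basigin (Bsg) or embigin (Emb). In mature T cells, antigen stimulation raises Slc7a5, Slc3a2, Slc1a5 and lactate carriers as the cells grow.

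RefSeq (GRCm38.p6) held start-site sequences for 56 of the 77 member genes, in 77 windows. The 250 bases before each start were searched on both strands for CACGTG, the E-box core bound by Myc family factors, and for TGATGNAA, the core of the amino acid response element bound by Atf4. CACGTG was present in 6.02% of all 32851 windows and TGATGNAA in 3.45%. Among the member windows CACGTG was present in 11 of 77 (14.3%) and TGATGNAA in 4 of 77 (5.19%). Members called between T lineage and wildtype lineage-negative cells had 19 windows, of which 2 (10.5%, Slc16a1 and Slc38a7) held CACGTG and 1 (5.26%, Slc7a11) held TGATGNAA. Slc7a7, which was not called, held TGATGNAA matches that begin 243 and 141 bases before a listed start. No match overlapped one of the other motif in the sequences printed here. A stretch is shown for Slc16a1 and for Slc36a4, the members with the largest rise and the largest fall in T lineage against wildtype lineage-negative cells. Another is shown for Slc7a11, the member with the largest difference between the genotypes. Letters run 5′ to 3′ on the gene's strand up to the base before the start, and capitals mark motif matches. The stretches are chr3:104638414-104638663 (plus strand) for Slc16a1, chr3:50443614-50443713 (minus strand, the last 100 bases, inside the span of a longer RefSeq gene model) for Slc7a11 and chr9:15709488-15709737 (plus strand) for Slc36a4.
Slc16a1: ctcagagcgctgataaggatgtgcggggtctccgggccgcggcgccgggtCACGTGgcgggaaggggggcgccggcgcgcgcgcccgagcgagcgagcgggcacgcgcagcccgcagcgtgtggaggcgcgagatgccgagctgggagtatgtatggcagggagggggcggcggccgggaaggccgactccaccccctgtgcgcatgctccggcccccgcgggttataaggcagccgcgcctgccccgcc
Slc7a11: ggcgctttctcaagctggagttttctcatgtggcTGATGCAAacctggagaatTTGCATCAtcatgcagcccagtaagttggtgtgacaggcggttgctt
Slc36a4: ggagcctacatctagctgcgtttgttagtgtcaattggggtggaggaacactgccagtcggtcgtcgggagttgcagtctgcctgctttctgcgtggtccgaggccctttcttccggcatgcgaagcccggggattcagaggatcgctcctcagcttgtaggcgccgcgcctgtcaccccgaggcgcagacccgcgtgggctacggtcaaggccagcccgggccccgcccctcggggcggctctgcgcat
The E-box letters of Slc16a1 begin 200 bases before the start. The pair of matches in Slc7a11, one on each strand, begin 66 and 47 bases before it. In the Slc36a4 window neither motif was found.

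Values are log2 array values, so a difference of 1 is a 2-fold change, and a level says nothing about the level of another probeset. Across probesets, which are not independent replicates, r lay between 0.995 and 0.997 for arrays of 1 group and between 0.973 and 0.983 for a T lineage beside a lineage-negative array. Differences were tested with limma over all 21789 probesets, and a probeset was called at a Benjamini-Hochberg adjusted p under 0.05. T lineage markers mostly followed the sort labels. Set against wildtype lineage-negative cells, the T lineage cells had 9 of 11 T lineage markers higher, 9 of 9 dendritic and MHC class II markers lower and 9 of 13 granulocyte and monocyte markers lower, and these counts were the same against deficient cells. Thy1 and Il2ra (CD25) of the T lineage list and Itgam (Mac1) and Ly6g (Gr1) of the granulocyte list were part of the gates, so they are no independent check. The summed dendritic list lay between 13.64 and 13.98 (log2 of the summed linear level) in the lineage-negative arrays of both genotypes and between 11.07 and 11.45 in the T lineage arrays. The granulocyte and monocyte list lay between 13.39 and 13.98 and between 11.73 and 12.36. T lineage replicates 1 and 2 stood at 11.52 and 10.21 for Cd3g, 10.22 and 8.86 for Rag1, and 10.69 and 11.54 for Mpo. Itgam stood at 6.25 and 7.04 in them, and Il2ra at 12.24 and 12.22. The part of such differences in transporter values that differ between these arrays was not tested. The summed stromal markers would mark carried-over OP9 cells. They lay between 10.09 and 10.36 in deficient, 10.05 and 10.11 in wildtype lineage-negative and 9.87 and 10.00 in T lineage arrays. In T lineage cells 1 of 10 was lower against wildtype and 2 of 10 against deficient cells. Between the genotypes the stromal marker Sparc differed by 0.54 (SE 0.08, adjusted p = 0.0997). Of the other lists, 1 of 6 B lineage markers was lower against wildtype cells and 2 of 7 mast cell markers were higher. Of 5 erythroid and megakaryocyte markers 1 was higher and 1 lower. Against deficient cells the counts of these lists were the same, except that 1 mast cell marker was higher and 1 lower. Lineage-negative cells of both genotypes thus carried more dendritic and myeloid transcripts than T lineage cells, and the part of these in the transporter results was not tested.

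In wildtype T lineage cells, the carriers for lactate (Slc16a1), cationic amino acids (Slc7a3 and Slc7a1), cystine (Slc7a11) and leucine (Slc7a5 with its heavy chain Slc3a2) were higher than in wildtype lineage-negative cells, by 1.32-fold to 1.94-fold. The lysosomal arginine sensor Slc38a9 and the proline and tryptophan carrier Slc36a4 were lower, by 2.08-fold and 2.41-fold at their strongest probeset. In all, 13 of 80 member probesets rose, 7 fell and 60 did not pass, so 25.0% were called where 18.0% of all tested probesets were called in this comparison. The median difference was 0.10 over the members and 0.04 over all tested probesets. Rises made up 13 of 80 members against 7.66% of all probesets, and falls 7 of 80 against 10.4%. Changes were small, since 2 of the 20 called probesets reached 2-fold. Of the 36 members among the dimmest 40% of probesets, 1 was called, and of the 44 brighter ones 19. Brighter probesets were called more often in general. When the dimmest 40% were left out before testing, 4003 of 13074 probesets were called, and 13 of the 44 members rose and 7 fell. The number of rises was 7 without wildtype lineage-negative replicate 2, 7 without T lineage replicate 1 and 5 without T lineage replicate 2.

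**Figure D1:**
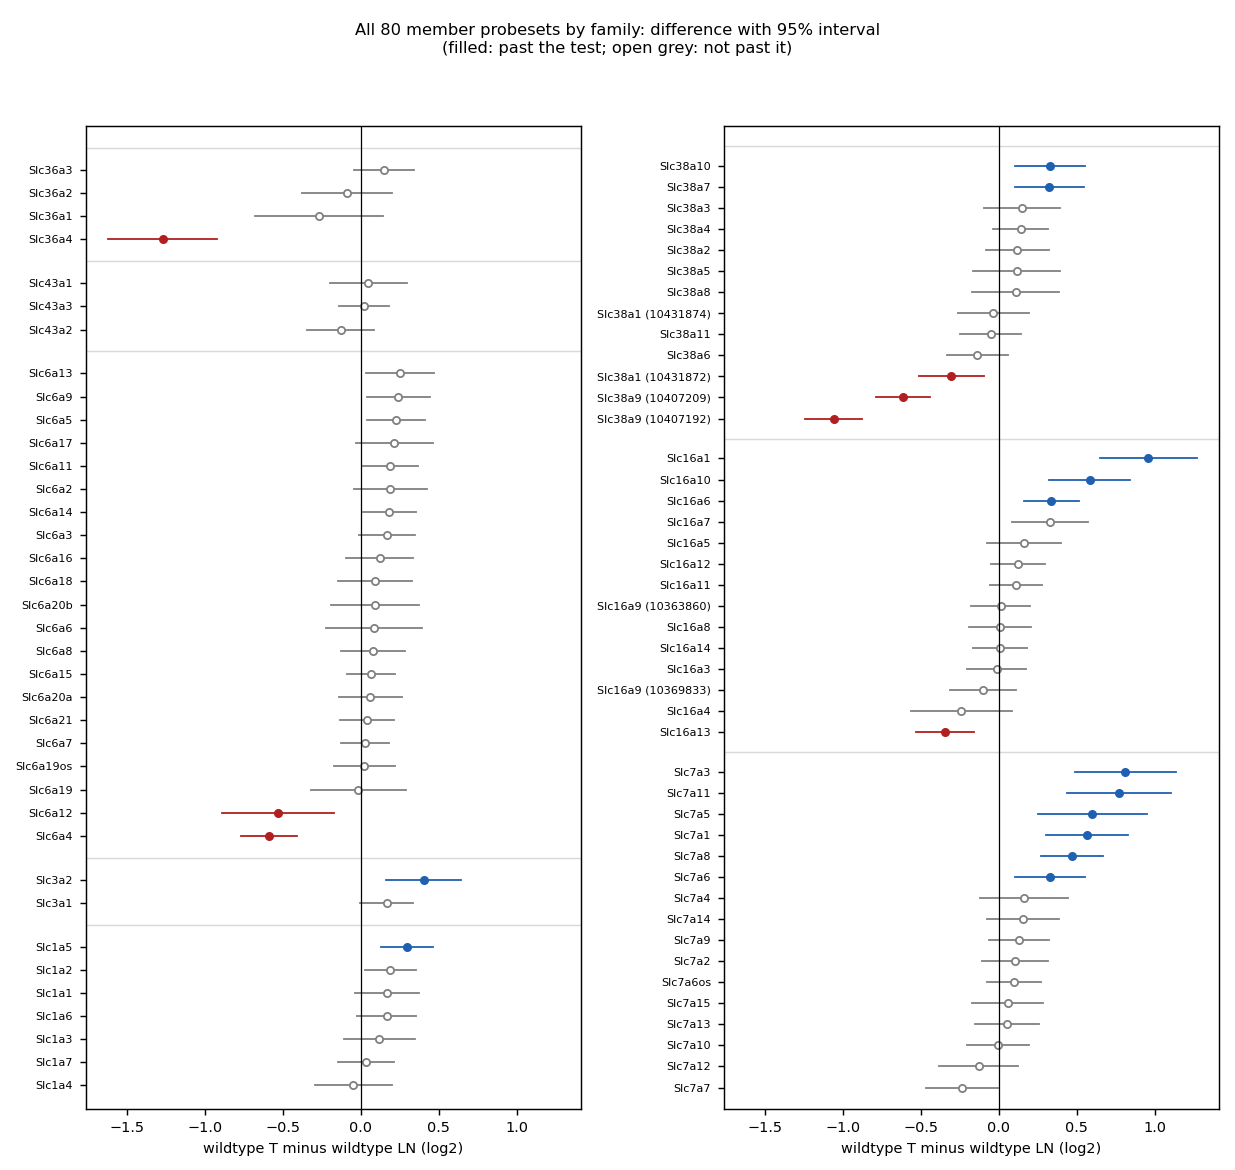
Log2 difference between wildtype T lineage and wildtype lineage-negative (LN) cells for the 80 member probesets, grouped by family, with 95% intervals from limma. Filled blue points passed the test as higher (13), filled red points as lower (7), and open grey points did not pass (60). The extremes are Slc36a4 at -1.27 and Slc16a1 at 0.96.

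The clearest rise among the monocarboxylate carriers was that of Slc16a1 (MCT1, the widespread lactate and pyruvate carrier; probeset 10495035). It stood at 7.93, 7.63 and 7.85 in the wildtype lineage-negative arrays, at 7.85, 7.92 and 8.26 in the deficient ones, and at 8.61 and 8.91 in the T lineage arrays. Both T lineage arrays lay above all 6 lineage-negative arrays. The difference from wildtype lineage-negative cells was 0.96 (SE 0.14, limma adjusted p = 0.000739), and it stayed between 0.81 and 1.11 under all 16 alternatives. Slc16a10 (TAT1, a carrier of aromatic amino acids; 10368720) stood at 7.68, 7.66 and 7.71 in wildtype lineage-negative cells and at 8.15 and 8.38 in T lineage cells, a rise of 0.58 (SE 0.12, adjusted p = 0.0058). Without T lineage replicate 2 its rise was 0.47 and no longer passed (adjusted p = 0.0627). Slc16a6 (10392440), a carrier linked to ketone bodies, rose by 0.34 (SE 0.08, adjusted p = 0.0134), and not without T lineage replicate 2 (0.30, adjusted p = 0.0929). Slc16a13 (10387791) fell by 0.35 (SE 0.08, adjusted p = 0.0155), from 7.89, 7.75 and 7.74 to 7.37 and 7.53. Its call ended without wildtype lineage-negative replicate 1 (adjusted p = 0.0547) or T lineage replicate 1 (0.147).

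The remaining 10 Slc16a probesets did not pass, with differences from -0.24 to 0.33. Slc16a3 (MCT4, the lactate exporter of glycolytic cells; 10383502) lay from 7.17 to 7.39 over the 8 arrays, with the groups overlapping. Its difference was -0.01, with a 95% interval of -0.20 to 0.17. Slc16a7 (MCT2), a carrier with high affinity for pyruvate, had a difference of 0.33 (adjusted p = 0.0655), with both T lineage arrays (7.75 and 7.96) above the wildtype lineage-negative ones (7.45, 7.54 and 7.60). Of the membrane partners of Slc16a1, Emb fell by 1.18 (SE 0.11, adjusted p = 3.14e-05), from 11.42, 11.54 and 11.44 to 10.43 and 10.15. Bsg, named here after its value was seen, differed by 0.10 (adjusted p = 0.409).

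Among the 16 Slc7a probesets (15 of carriers and Slc7a6os), 6 rose and none fell, where 7.66% of all tested probesets rose and 10.4% fell. Slc7a3 (CAT3, a carrier of arginine and lysine; 10605986) stood at 6.51, 6.57 and 6.42 in wildtype lineage-negative, 6.42, 6.76 and 6.47 in deficient and 7.05 and 7.57 in T lineage arrays. Both T lineage arrays were above all others, and they stood apart from each other. The rise was 0.81 (SE 0.15, adjusted p = 0.00294), with a range over alternatives from 0.55 to 1.07. Slc7a1 (CAT1, the widespread arginine carrier; 10535852) stood at 8.63, 8.39 and 8.71 in wildtype lineage-negative and at 9.14 in both T lineage arrays, a rise of 0.56 (SE 0.12, adjusted p = 0.00693). The third cationic carrier, Slc7a2, differed by 0.10 (adjusted p = 0.532).

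Slc7a11 (xCT, which exchanges cystine for glutamate; 10498024) stood at 6.60, 6.30 and 6.47 in wildtype lineage-negative arrays and at 7.21 and 7.24 in T lineage arrays. The rise was 0.77 (SE 0.15, adjusted p = 0.00456) and passed under all 16 alternatives (changes of normalization, of the probesets or groups fitted, or 1 array left out). Of the deficient arrays, at 7.21, 6.70 and 7.21, 2 stood beside the T lineage arrays and 1 between the groups. The printed window holds the pair of TGATGNAA matches.

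The leucine carrier Slc7a5 (LAT1; 10582275) and its heavy chain Slc3a2 (10465772) both rose. Slc7a5 stood at 9.93, 9.60 and 9.91 in wildtype lineage-negative, 9.62, 10.01 and 10.22 in deficient and 10.47 and 10.35 in T lineage arrays. Slc3a2 stood at 9.87, 9.66 and 9.81, at 9.69, 9.98 and 9.99, and at 10.13 and 10.24 in the same order. For both genes array 1 was the lowest of the deficient arrays and array 2 the lowest of the wildtype lineage-negative ones. The rises were 0.60 (SE 0.16, adjusted p = 0.0236) and 0.40 (SE 0.11, adjusted p = 0.0248). The Slc7a5 call ended without wildtype lineage-negative replicate 2 (adjusted p = 0.0793), T lineage replicate 1 (0.134) or T lineage replicate 2 (0.0679), and that of Slc3a2 without wildtype lineage-negative replicate 2 (0.0844) or 3 (0.055) or T lineage replicate 1 (0.0595) or 2 (0.149). With all probesets tested neither passed (0.0783 and 0.0678).

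Other light chains that pair with Slc3a2 were mixed. Slc7a8 (LAT2, a carrier of neutral amino acids; 10419854) stood at 5.89, 5.84 and 6.02 in wildtype lineage-negative and at 6.39 in both T lineage arrays, a rise of 0.47 (SE 0.09, adjusted p = 0.00421). It is the called member among the dimmest 40% of probesets. Slc7a6 (y+LAT2, an exchanger of cationic for neutral amino acids; 10574985) rose by 0.33 (SE 0.10, adjusted p = 0.0456), from 9.54, 9.28 and 9.20 to 9.73 and 9.61. That call was lost without any 1 of 7 arrays: deficient replicate 1 (adjusted p = 0.0568), 2 (0.0597) or 3 (0.0651), wildtype lineage-negative replicate 2 (0.126) or 3 (0.148), or T lineage replicate 1 (0.247) or 2 (0.0863). It was also lost with array weights (0.0533), with the deficient arrays left out of the fit (0.0805) and with all probesets tested (0.0988). Slc7a7 (y+LAT1; 10419744), the related exchanger, had a difference of -0.24 (adjusted p = 0.157), at 7.12, 7.16 and 7.26 against 6.90 and 6.99. The other 9 Slc7a probesets, Slc7a6os among them, also did not pass, with differences from -0.13 to 0.16. Slc3a1, the heavy chain of kidney and gut, differed by 0.16 (adjusted p = 0.179).

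**Figure D2:**
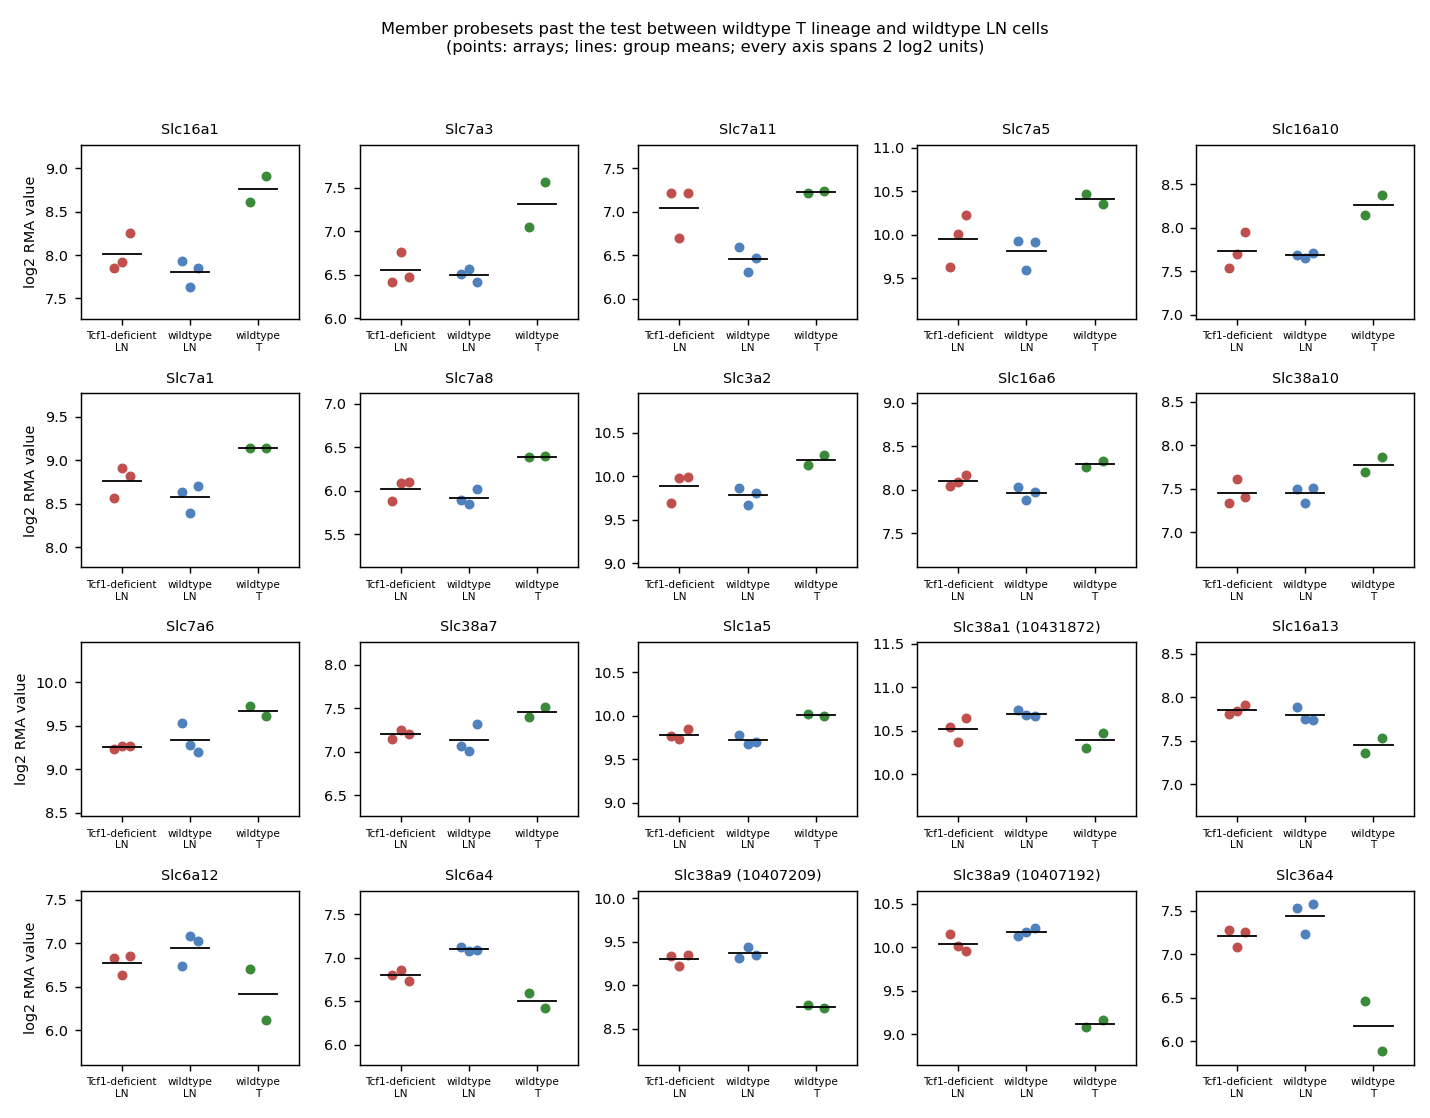
Log2 array values of the 20 member probesets called between wildtype T lineage (T, green) and wildtype lineage-negative (LN, blue) cells, with Tcf1-deficient lineage-negative cells in red. Points are arrays, lines are group means, and every axis spans 2 log2 units. The deficient arrays lie near the wildtype lineage-negative ones in most panels, and they do not overlap them for Slc7a11, Slc6a4, Slc16a6 and Slc38a1 (10431872). Over all tested probesets 9.95% do not overlap between the genotypes. The 20 were picked with the same wildtype lineage-negative arrays, so no genotype result is read from these panels.

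Glutamine and small neutral amino acids are taken up by Slc1a5 and the sodium-coupled Slc38a carriers. Slc1a5 (ASCT2; 10550332) stood at 9.78, 9.67 and 9.70 in wildtype lineage-negative and at 10.02 and 10.00 in T lineage arrays, a rise of 0.29 (SE 0.08, adjusted p = 0.02). Its call ended without wildtype lineage-negative replicate 2 (adjusted p = 0.0665) or 3 (0.0625) or T lineage replicate 1 (0.108) or 2 (0.0788). The other 6 Slc1a genes, among them the neutral exchanger Slc1a4 (-0.05, adjusted p = 0.818) and the glutamate carrier Slc1a2 (0.19, adjusted p = 0.111), did not pass. Slc38a2 (SNAT2, a carrier raised when amino acids are short; 10431894) lay between 11.42 and 11.71 on all 8 arrays, with a difference of 0.12 (adjusted p = 0.438).

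Slc38a9, the lysosomal carrier through which arginine signals to mTORC1, fell at both of its probesets. Probeset 10407192 stood at 10.14, 10.18 and 10.23 in wildtype lineage-negative, 10.15, 10.02 and 9.96 in deficient and 9.08 and 9.16 in T lineage arrays. The fall was by 1.06 (SE 0.08, adjusted p = 8.14e-06), and by 0.62 (SE 0.08, adjusted p = 0.000286) at probeset 10407209. No T lineage array came near a lineage-negative one, and the call of both probesets held under all 16 alternatives. Averaged over both probesets the fall was by 0.84 (SE 0.07, adjusted p = 2.36e-05). Slc38a7 (SNAT7, the glutamine exporter of the lysosome; 10580957) rose by 0.32 (SE 0.10, adjusted p = 0.047) and Slc38a10 (10393728) by 0.33 (SE 0.10, adjusted p = 0.0487).

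Both of these calls were close to the threshold. The Slc38a7 call was lost without deficient replicate 1 (adjusted p = 0.0543), 2 (0.0572) or 3 (0.0668), wildtype lineage-negative replicate 1 (0.13) or 2 (0.142), or T lineage replicate 1 (0.0931) or 2 (0.225), and also with array weights (0.0519), with the deficient arrays left out of the fit (0.0757) and with all probesets tested (0.1). The Slc38a10 call was lost without deficient replicate 3 (0.0661), wildtype lineage-negative replicate 1 (0.0749), 2 (0.146) or 3 (0.0746), or T lineage replicate 1 (0.064) or 2 (0.271), and also with all probesets tested (0.105). The probesets of Slc38a1 (SNAT1, a glutamine carrier) disagreed. Probeset 10431872 fell by 0.30 (SE 0.09, adjusted p = 0.0488), from 10.73, 10.68 and 10.67 to 10.31 and 10.47, while 10431874 differed by -0.04 (adjusted p = 0.86). Their mean differed by -0.17 (adjusted p = 0.199). The call of the former was lost without deficient replicate 1 (adjusted p = 0.0595), wildtype lineage-negative replicate 1 (0.123), 2 (0.101) or 3 (0.0934), or T lineage replicate 1 (0.313) or 2 (0.059), after a second quantile normalization (0.0559) or median centring (0.0798), and with all probesets tested (0.0992). The other 7 Slc38a probesets with no call, Slc38a2 among them, had differences from -0.14 to 0.15.

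Slc36a4 (PAT4, a carrier of proline and tryptophan; 10583326) had the largest fall of the members. It stood at 7.53, 7.23 and 7.57 in wildtype lineage-negative, 7.28, 7.08 and 7.25 in deficient and 6.46 and 5.89 in T lineage arrays. The fall was by 1.27 (SE 0.16, adjusted p = 0.000238), with values from -1.56 to -0.99 over the alternatives. Slc36a1 (PAT1, the proton-coupled exporter of the lysosome; 10376216) was split between the T lineage arrays, at 6.82 and 7.59, against 7.63, 7.26 and 7.53 in wildtype lineage-negative cells. Its difference was -0.27 (adjusted p = 0.387), and without T lineage replicate 2 it was -0.65 and passed (adjusted p = 0.0119), while without T lineage replicate 1 it was 0.12 (adjusted p = 0.727), so its direction rests on 1 array. Its neighbours Slc36a2 (-0.09, adjusted p = 0.713) and Slc36a3 (0.15, adjusted p = 0.288) did not pass.

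Of 21 Slc6a probesets 2 fell, a share of 9.52% beside 10.4% of all tested probesets. Slc6a4, the serotonin transporter (10378816), stood at 7.13, 7.08 and 7.09 in wildtype lineage-negative and at 6.60 and 6.42 in T lineage arrays, a fall by 0.59 (SE 0.08, adjusted p = 0.000518). Slc6a12 (a carrier of betaine and the transmitter GABA; 10541333) stood at 6.73, 7.09 and 7.02 against 6.71 and 6.12, a fall by 0.53 (SE 0.16, adjusted p = 0.0448). The T lineage array at 6.71 nearly touched the lowest wildtype one, and without T lineage replicate 2 the difference was -0.24 (adjusted p = 0.356). The Slc6a12 call was also lost without deficient replicate 1 (0.0573), 2 (0.0557) or 3 (0.0584) or wildtype lineage-negative replicate 2 (0.131) or 3 (0.121), with all deficient arrays left out of the fit (0.0768) and with all probesets tested (0.12). The other 19 had differences from -0.02 to 0.25, among them the taurine carrier Slc6a6 (0.09, adjusted p = 0.74; 9.03 to 9.63 over the 8 arrays). None of the 3 Slc43a carriers passed: Slc43a1 (LAT3, a leucine facilitator) differed by 0.05, Slc43a2 (LAT4, of the same kind) by -0.13 and Slc43a3 (a carrier of nucleobases) by 0.02. Slc43a3 lay between 10.26 and 10.36 on all 8 arrays.

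**Figure D3:**
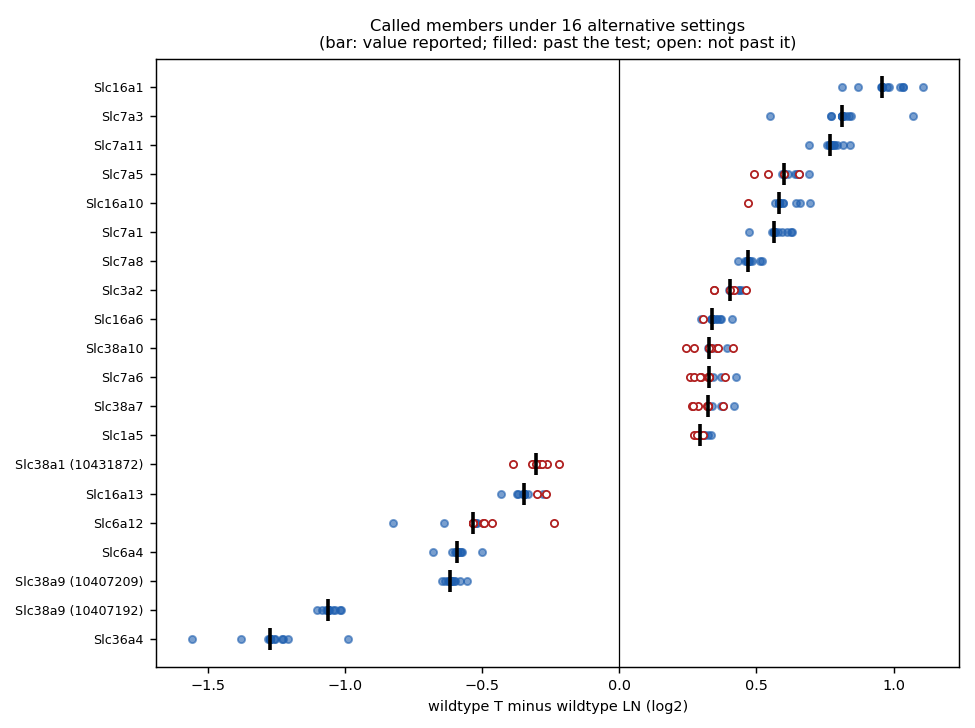
Log2 difference between wildtype T lineage and wildtype lineage-negative (LN) cells for the 20 called member probesets under the alternative settings (16, or 15 for Slc7a8, which has no value without the dimmest probesets). Black bars are the values reported, filled points are alternatives past the test and open points are alternatives that were not. All points keep the sign of the reported value, and probesets with differences near 0.3 have many open points.

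Against Tcf1-deficient lineage-negative cells, T lineage cells were higher at 5 member probesets and lower at 5, and 70 did not pass. That is 12.5% of members, where 14.1% of all tested probesets were called, 5.98% as higher and 8.16% as lower. This comparison shares its T lineage arrays with the one before, so the values are set side by side and not counted as a second finding. Slc16a1 rose by 0.75 (SE 0.14, adjusted p = 0.00436) against deficient cells where it had risen by 0.96 against wildtype ones. The values for Slc7a3 were 0.76 (adjusted p = 0.00553) and 0.81, for Slc16a10 0.54 (0.0114) and 0.58, for Slc7a6 0.41 (0.0194) and 0.33, and for Slc7a8 0.37 (0.0207) and 0.47. Falls were by 0.92 (adjusted p = 2.9e-05) and 0.55 (0.000793) for the Slc38a9 probesets, by 1.03 (0.00123) for Slc36a4, by 0.41 (0.00788) for Slc16a13 and by 0.29 (0.0369) for Slc6a4.

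The 10 member probesets called against wildtype but not against deficient cells had smaller differences from deficient cells. Picking by that pattern of calls favours such an order, so no conclusion is drawn from it. The differences from deficient cells were 0.46 (adjusted p = 0.0851) for Slc7a5, 0.30 (0.103) for Slc3a2, 0.38 (0.0594) for Slc7a1, 0.23 (0.0729) for Slc1a5, 0.20 (0.14) for Slc16a6 and 0.19 (0.489) for Slc7a11. Slc38a7 differed by 0.26 (0.125), Slc38a10 by 0.32 (0.0608), Slc6a12 by -0.36 (0.195) and Slc38a1 at probeset 10431872 by -0.13 (0.425). Slc36a1 had the reverse order, with -0.54 (0.085) against deficient and -0.27 against wildtype cells. The gap between each pair of values is the difference between the genotypes, which is tested next, and none of these gaps passed.

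The calls against deficient cells depended on single arrays in part. The number of rises was 3 without deficient replicate 1, T lineage replicate 1 or T lineage replicate 2. Slc16a10 was lost without T lineage replicate 2 (adjusted p = 0.108), Slc16a13 without T lineage replicate 1 (0.0851), Slc7a6 without deficient replicate 1 (0.0553) or T lineage replicate 1 (0.136), and Slc7a8 without deficient replicate 1 (0.0603), T lineage replicate 1 (0.0904) or 2 (0.0982). Slc6a4 was lost without deficient replicate 1 (0.084) or 2 (0.079), wildtype lineage-negative replicate 1 (0.056), 2 (0.0546) or 3 (0.0577), or T lineage replicate 2 (0.262), with array weights (0.0555), with the wildtype lineage-negative arrays left out of the fit (0.0884) and with all probesets tested (0.0744). Testing all probesets also ended the calls of Slc7a6 (0.0596) and Slc7a8 (0.0562). Some members gained a call: Slc7a5 without deficient replicate 3 (0.60, adjusted p = 0.028), Slc7a1 without deficient replicate 2 (0.0401) or wildtype lineage-negative replicate 2 (0.0441), Slc7a7 without deficient replicate 2 (-0.30, 0.0493) and Slc36a1 without T lineage replicate 2 (-0.93, 0.00177). Without T lineage replicate 1 Slc36a1 differed by -0.16 (0.628). Slc7a1 also gained a call without the dimmest 40% of probesets (adjusted p = 0.0432), after a second quantile normalization (0.0414) and with an intensity trend and robust prior (0.0435). Slc1a5 gained one without the dimmest 40% (0.0415) and after a second quantile normalization (0.0458), and Slc16a6 after the latter (0.0475). After that normalization the split was 9 rises and 5 falls.

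Between the genotypes, no transporter passed the test. Of the 80 probesets 0 were called by limma at an adjusted p under 0.05, 4 had an unadjusted p under 0.05 (4.92% of all tested probesets had), and 0.00459% of all tested probesets were called (1 of 21789, the T lineage marker Il2ra). The count was 0 under each of the 16 alternatives. The median difference was 0.03 over the members and the median size 0.07, against 0.06 over all tested probesets. For 77 of the 80 the 95% interval lay within 0.5 of 0, and for none did it reach beyond 1. The others were Slc7a11 (0.29 to 0.88), Slc36a1 (-0.10 to 0.64) and Slc36a4 (-0.55 to 0.07). Arrays of the genotypes did not overlap for 9 of 80 members (6 higher and 3 lower in deficient cells), where 9.95% of all tested probesets did not overlap (3.93% higher and 6.01% lower).

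The largest difference was that of Slc7a11, the cystine carrier. Its deficient arrays stood at 7.21, 6.70 and 7.21 and its wildtype lineage-negative arrays at 6.60, 6.30 and 6.47. All 3 deficient arrays lay above all 3 wildtype ones. The difference was 0.58 (SE 0.13, 95% interval 0.29 to 0.88, unadjusted p = 0.00128) and failed the correction (limma adjusted p = 0.529, 0.153 or more under the alternatives). Slc6a4 came next, at 6.80, 6.86 and 6.73 in deficient and 7.13, 7.08 and 7.09 in wildtype cells, a difference of -0.30 (SE 0.07, adjusted p = 0.65). The T lineage arrays were lower still, at 6.60 and 6.42.

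Slc6a13, a GABA carrier (10541318), differed by 0.25 (SE 0.09, adjusted p = 0.858), with deficient arrays at 5.84, 5.81 and 6.09 and wildtype ones at 5.70, 5.71 and 5.55. Slc16a9, a carnitine carrier, differed by -0.24 (adjusted p = 0.9) at probeset 10369833 and by 0.07 (adjusted p = 0.999) at probeset 10363860, so its probesets disagreed in sign. Slc38a1 differed by -0.17 at probeset 10431872 and by 0.01 at 10431874, each at an adjusted p of 0.999. Of the leucine and glutamine carriers, Slc7a5 differed by 0.14 (95% interval -0.18 to 0.45), Slc3a2 by 0.11 (-0.11 to 0.32) and Slc1a5 by 0.07 (-0.08 to 0.21). The lactate carriers Slc16a1 and Slc16a3 differed by 0.21 (-0.07 to 0.48) and 0.01 (-0.16 to 0.17).

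Tcf7 lies on the same chromosome as 12 of the member genes, among them Slc36a3, Slc36a2 and Slc36a1, which follow each other directly in the RefSeq gene order. In a backcrossed line, genes linked to the targeted locus can keep alleles of the founder strain, and whether these do was not tested. Slc36a1 was higher on all 3 deficient arrays (7.69, 7.75 and 7.81) than on the wildtype ones (7.63, 7.26 and 7.53), with a difference of 0.27 (SE 0.17, adjusted p = 0.999). Slc36a2 differed by 0.01 and Slc36a3 by 0.11, with overlapping arrays. The other members on that chromosome are Slc1a4, Slc16a11, Slc16a13, Slc43a2, Slc6a4, Slc16a6, Slc16a5, Slc38a10 and Slc16a3. Distances from Tcf7 were not measured, so lying on its chromosome does not show linkage.

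**Figure D4:**
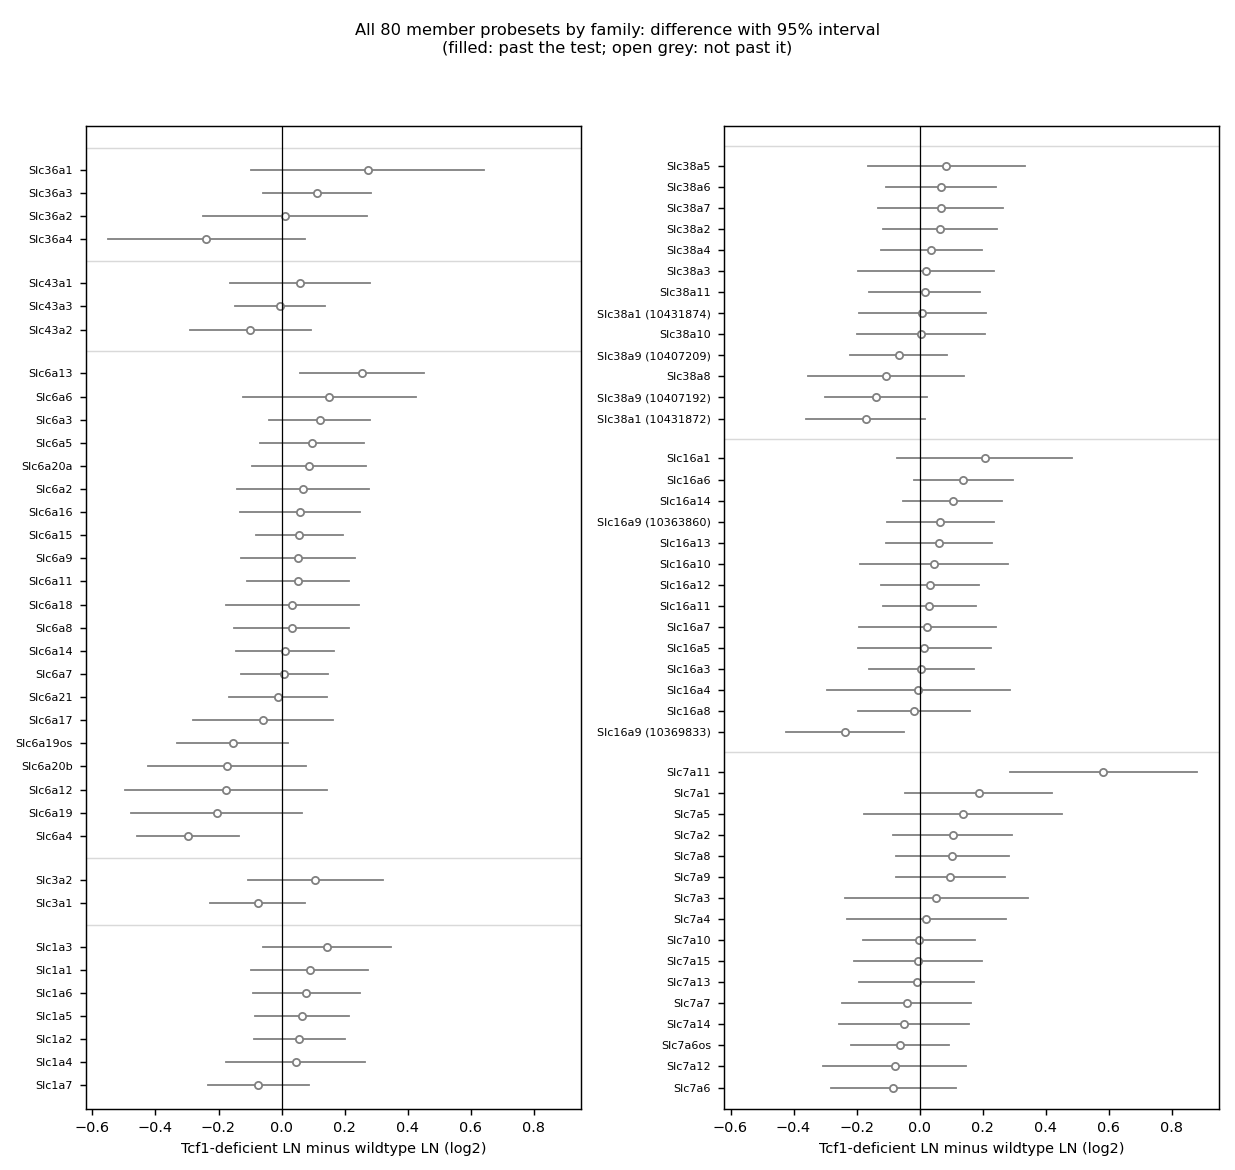
Log2 difference between Tcf1-deficient and wildtype lineage-negative (LN) cells for the 80 member probesets, grouped by family, with 95% intervals from limma. All points are open because none passed the test. Slc7a11 (0.58) lies farthest to the right and Slc6a4 (-0.30) farthest to the left.

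Genes that work beside the carriers were taken from 4 lists. In T lineage against wildtype lineage-negative cells, the amino acid deprivation response, in which the kinase Gcn2 and the factor Atf4 raise amino acid synthesis and uptake, had 11 of 28 probesets higher and 2 lower (46.4% called, beside 18.0% of all tested probesets, with a median of 0.16). Shmt2, which makes glycine from serine in mitochondria, rose by 1.15 (SE 0.22, adjusted p = 0.00418), Wars, the tryptophanyl-tRNA synthetase, by 0.98 (SE 0.15, 0.0008), and Psat1, an enzyme of serine synthesis, by 0.82 (SE 0.09, 9.41e-05). Psat1 stood at 9.53, 9.45 and 9.61 in wildtype lineage-negative and at 10.33 and 10.38 in T lineage arrays. The 2 lower probesets were those of Cebpg (-0.41, SE 0.07, adjusted p = 0.00243) and Atf3 (-0.38, SE 0.10, 0.0188). Eif2ak4, the gene of Gcn2, differed by -0.15 (0.409) and was among the 15 that did not pass. Differences were above 0 for 22 of the 28 probesets and below 0 for 6. The log2 of the summed linear level lay between 14.28 and 14.32 in T lineage arrays. It lay between 13.98 and 14.07 in wildtype lineage-negative and between 14.02 and 14.15 in deficient arrays. Against deficient cells 6 of the 28 were higher and 1 lower (25.0%, beside 14.1% of all tested probesets). Between the genotypes 0 of the 28 were called by limma, and 3 had an unadjusted p under 0.05 (4.92% of all tested probesets had).

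Amino acid sensing upstream of mTORC1 went both ways, with 6 of 37 probesets higher and 5 lower against wildtype cells (29.7%, beside 18.0% of all tested) and 2 higher and 6 lower against deficient cells (21.6%, beside 14.1%). Deptor, an inhibitor within the mTOR complexes, rose by 0.89 (SE 0.13, adjusted p = 0.000771), while Fnip2, a partner of folliculin in amino acid sensing, fell by 0.85 (SE 0.12, 0.000732). Castor2, of the cytosolic arginine sensor family, fell by 0.77 (SE 0.09, 0.000133) at probeset 10526191 and differed by -0.06 (0.706) at 10526181. Among enzymes of amino acid use 7 of 34 probesets were higher and 4 lower against wildtype cells (32.4%, beside 18.0% of all tested). Against deficient cells 5 were higher and 5 lower (29.4%, beside 14.1%). Kynu and Kmo, enzymes of tryptophan breakdown, fell against wildtype cells by 4.44 (SE 0.20, limma adjusted p = 1.94e-07) and 3.21 (SE 0.19, 1.16e-06). Srm, the spermidine synthase, rose by 0.87 (SE 0.13, 0.000744), from 9.81, 9.67 and 9.81 to 10.53 and 10.73.

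In the list of lactate and pyruvate handling 7 of 26 probesets were higher and 3 lower against wildtype cells (38.5%, beside 18.0% of all tested). Against deficient cells 4 were higher and 3 lower (26.9%, beside 14.1%). Beside Emb, Mpc1, a subunit of the mitochondrial pyruvate carrier, fell against wildtype cells by 0.73 (SE 0.10, limma adjusted p = 0.000408). Thrb, a thyroid hormone receptor listed because some Slc16a members carry thyroid hormone, rose by 0.80 (SE 0.14, 0.00266), with its T lineage arrays at 7.24 and 6.71. Ldha, lactate dehydrogenase, named here after its value was seen, differed by 0.03 (0.864). Between the genotypes 0 of 37, 0 of 34 and 0 of 26 probesets of these lists were called by limma. In the same order 3, 4 and 2 probesets had an unadjusted p under 0.05, where 4.92% of all tested probesets had.

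**Figure D5:**
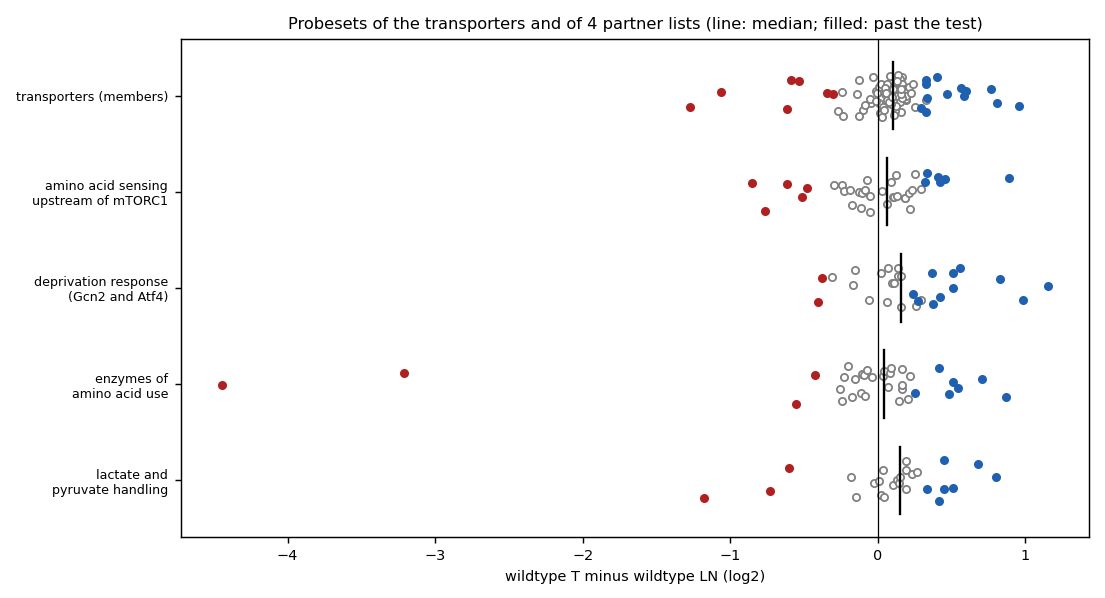
Log2 difference between wildtype T lineage and wildtype lineage-negative (LN) cells for the 80 transporter probesets and for the probesets of 4 partner lists. Filled blue points passed the test as higher and filled red points as lower, open points did not pass, and black lines are medians. The deprivation response has 11 blue and 2 red points, and the far left points are Kynu (-4.44) and Kmo (-3.21).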

How the data were processed

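The authors' deposited table gives log2 values per probeset, made with RMA (background correction, normalization between arrays and probeset summary) in Partek 6.5, per the submitters' processing notes. The log2 scale was read from the values. Further options (and the genome build of the probes) were not given in the sources used here. Each array received the amplified product of 10 ng RNA, per the labels' protocols. The number of arrays limits the precision, and detection above background was not used.

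Of 35399 probesets, 11989 had no gene and 1621 several genes in the platform table, and both kinds were left out (none of the latter named a family member). Gene identifiers of 99.6% of the rest matched RefSeq (GRCm38.p6), and of all 77 member genes. limma 3.58.1 in R 4.3.3 (lmFit, eBayes) fitted all 8 arrays as 3 groups, which left 5 residual degrees of freedom. Tests were two-sided and p was adjusted by Benjamini-Hochberg over all 21789 probesets. The fit was tested on simulated data. Replicate numbers are not said to pair the arrays and were not used.

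Named genes were all called members, the 5 of smallest p between the genotypes, a fixed panel of 22 carriers, and the called genes among the 3 largest of each partner list. Slc16a7, Slc3a1, Slc7a2, Slc1a2, Bsg, Ldha, Cebpg, Atf3 and Eif2ak4 were added after their values were seen. The same holds for the values of the markers Cd3g, Rag1, Il2ra, Mpo, Itgam and Sparc. The members, lists and tests were chosen with earlier results of these data known. Alternatives left out each array, dropped the dimmest 40% of probesets, changed the normalization, block, weights, prior or groups fitted, or tested all probesets.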

Additional observations from a re-analysis of the deposited data

How the results depend on the processing

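All 30 called results of named members kept their sign under the 16 alternatives (15 for members among the dimmest 40%). The call held under every alternative for 14 of them and was lost under at least one for 16. Of 1400 values of named members under alternatives, 49 changed sign where neither value had passed, at reported differences of at most 0.27 in size. In T lineage against wildtype lineage-negative cells, the number of rises among the members was 8 with all probesets tested and 5 to 12 with 1 array left out, against 13. Against deficient cells it was 9 after a second quantile normalization, 3 with all probesets tested and 3 to 7 with 1 array left out, against 5. The numbers of falls (7 and 5) moved by less than 1.5 times. Where a single T lineage array is left, it is assumed to vary like the other groups.

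The labels' replicate numbers are not said to pair mice. Same-numbered deficient and wildtype arrays deviated from their group means with correlations of -0.13, 0.017 and 0.043, those of wildtype lineage-negative and T lineage cells with 0.158 and 0.12, and those of deficient and T lineage cells with -0.138 and -0.247. Of these pairs, only those of wildtype lineage-negative and T lineage cells are above 0.1, and they share only 2 numbers. With 2 T lineage arrays the deviations of one mirror those of the other. These values therefore cannot decide whether arrays are paired, and pairing was not taken from them. With a replicate block, 11 members rose and 6 fell against wildtype cells, 5 rose and 5 fell against deficient cells, and 0 were called between the genotypes. The block ended the calls against wildtype cells of Slc7a6 (adjusted p = 0.0911), Slc38a10 (0.0898), Slc6a12 (0.102) and Slc38a1 at probeset 10431872 (0.126), and that of Slc6a4 against deficient cells (0.0591).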
